A study of Homo sapiens with 6 samples.

Results

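The BCL2 family decides whether a cell opens its mitochondrial outer membrane and enters apoptosis. Anti-apoptotic members (BCL2, BCL2L1, BCL2L2 and MCL1) hold pro-death members in a surface groove, effectors (BAX and BAK1) form pores in the membrane, and BH3-only members (BID, BAD, BIK and BCL2L11) insert a short helix, the BH3 helix, into that groove or activate the effectors. In colorectal carcinoma the balance between these classes is known to bear on the response to radiation and drugs. These 10 genes were taken by name from the 60612 genes listed for each library.

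RNA sequencing was performed on HCT116, an established human colorectal carcinoma line. There were 3 libraries of cells that had received a control lentivirus, LV-NC, and 3 of cells that had received LV-SNORA28, a lentivirus that overexpresses the H/ACA small nucleolar RNA SNORA28, so that lentiviral infection was common to both groups. Poly(A) RNA was sequenced. A single cell line was used, and the labels do not say whether libraries of a group came from separate cultures, so p-values measure only the spread between these libraries. SNORA28 stood at 0.52 ± 0.47 FPKM in LV-NC and 14.6 ± 0.84 FPKM in LV-SNORA28 (SD, n = 3), in the direction that the labels state. In poly(A) libraries this value serves as a check of the labels and not as a measure of the mature snoRNA. All 5 epithelial markers (EPCAM, CDH1, KRT8, KRT18 and KRT19) were present, with a summed level of 758.42 to 845.89 FPKM in LV-NC and 780.07 to 826.77 FPKM in LV-SNORA28. Of 5 markers of leukocytes, fibroblasts and endothelium, COL1A1 alone passed 1 FPKM and COL1A2 was listed at 0 in every library.

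FPKM is a fragment count relative to transcript length and to all fragments mapped, and so allows levels of different genes to be set side by side. Read depth was unknown, so no counting error could be attached. Changes were tested with limma on log2(FPKM + 1) over the 12076 genes whose mean reached 1 FPKM, of which 9 were family members. A change was called at a Benjamini-Hochberg adjusted p below 0.05 over all these genes. Under this rule 1076 genes (8.91%) were called, 822 of them higher in LV-SNORA28 (6.81%) and 254 lower (2.1%). Quantile normalization gave 451 higher and 375 lower. Over all genes tested the median log2 fold change was 0.09.

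The BH3 helix that names the BH3-only class is built around a leucine and, further on, a small residue followed by an aspartate. Codons for this core were looked for in the reading frame of each member's canonical transcript (GENCODE 44, GRCh38), as a leucine codon, 3 codons of any kind, a codon for glycine, alanine or serine, and an aspartate codon. They were found in 9 of the 10 members and not in BCL2L2. The pattern is strict and demands a leucine codon at its first place. A miss therefore does not show that BCL2L2 lacks a BH3 helix. The same letters occur in 6857 of 19561 canonical coding transcripts (35.1%), so a match alone does not mark a BH3 helix. The stretches of the 4 BH3-only members are shown because BIK, the 1 member that passed the test described next, belongs to this class, with those of BAX and BCL2L1, an effector and an anti-apoptotic member, for comparison. Each runs 5′ to 3′ on the coding strand with 9 flanking bases on either side, and capitals mark the leucine codon and the pair of codons that end the core.
BIK: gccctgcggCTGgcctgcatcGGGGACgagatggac
BAD: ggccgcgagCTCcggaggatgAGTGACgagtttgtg
BID: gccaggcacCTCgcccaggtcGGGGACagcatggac
BCL2L11: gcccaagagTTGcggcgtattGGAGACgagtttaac
BAX: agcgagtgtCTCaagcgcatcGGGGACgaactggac
BCL2L1: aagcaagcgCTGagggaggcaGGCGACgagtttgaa
The BIK stretch lies in exon 3 at chr22:43127707-43127742 on the plus strand, and its core, without the flanking bases, covers codons 61 to 66 of 160. That of BAD lies in exon 3 at chr11:64271625-64271660 on the minus strand and is the one of the 6 printed with a serine codon in place of glycine. That of BCL2L11 lies in exon 3 at chr2:111150094-111150129 on the plus strand, and that of BAX in exon 3 at chr19:48955778-48955813 on the plus strand. The BCL2L1 stretch lies in exon 2 at chr20:31721925-31721960 on the minus strand. BID held 2 matches, and the one printed has its core at codons 90 to 95. That stretch lies in exon 4 at chr22:17739418-17739453 on the minus strand.

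Of the 9 family members tested, 1 rose in LV-SNORA28, 0 fell and 8 did not pass the test. The gene that rose was BIK. Called members were therefore 11.1% of those tested, beside 8.91% of all genes, a share that is not a result about the family. The median log2 fold change of the 9 members was 0.10, beside 0.09 over all genes. The threshold of the study, a fold change above 1.5 and an unadjusted p below 0.05, was applied to the same limma fit. There BIK was again the 1 member called, beside 3.79% of all genes. The submitters name DESeq2 and edgeR, so counts made this way are not those of the study. Groups did not overlap for 2 of the 9 members, BIK and BAD, beside 35.1% of all genes tested.

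**Figure D1:**
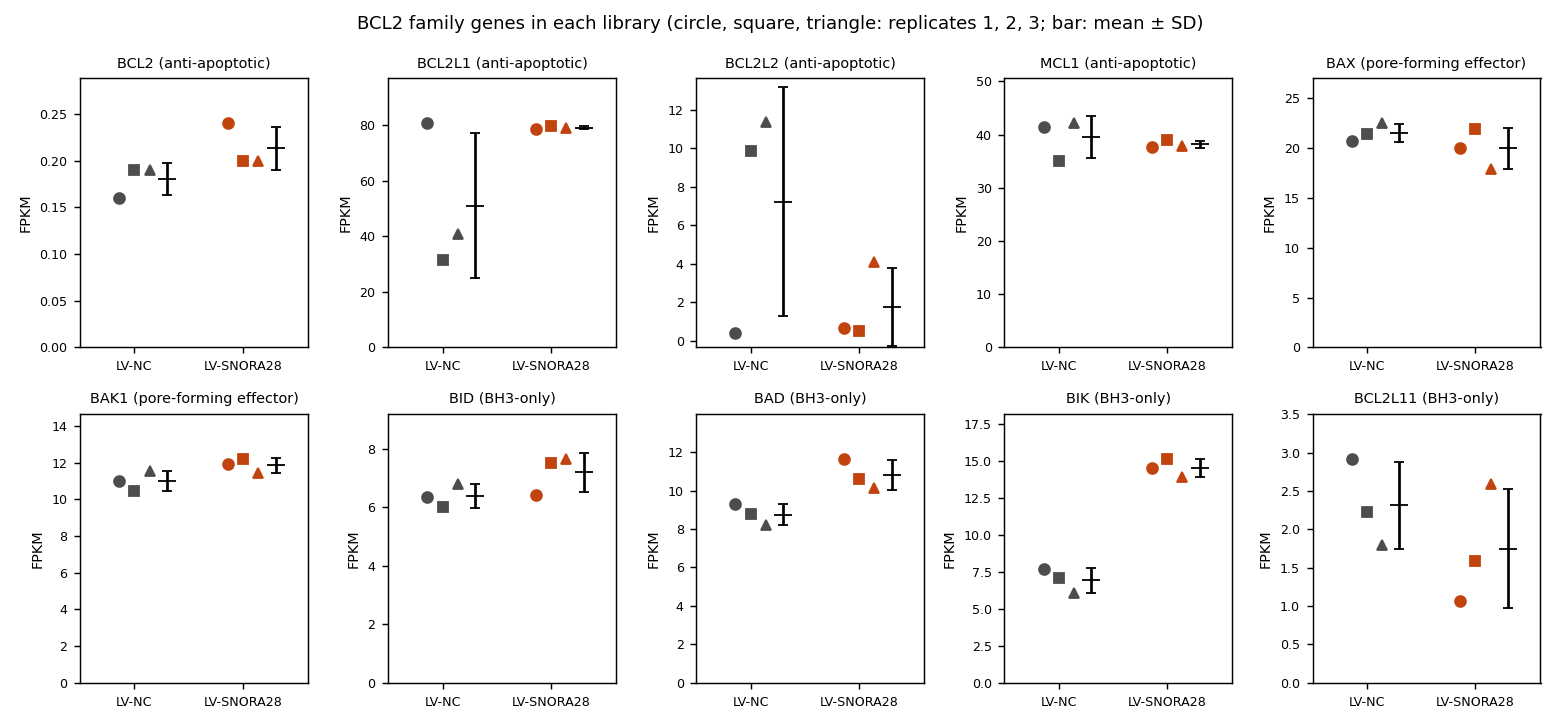
FPKM of the 10 BCL2 family genes in each library, 1 panel per gene with its own linear axis; grey symbols are LV-NC and orange symbols LV-SNORA28, and the black bar is the group mean ± SD (n = 3). The 3 LV-SNORA28 libraries of BIK (13.91 to 15.16 FPKM) lie above its 3 LV-NC libraries (6.05 to 7.73 FPKM), while LV-NC replicate 1 of BCL2L1 and of BCL2L2 lies with the LV-SNORA28 libraries.

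BIK encodes a BH3-only protein that resides largely at the endoplasmic reticulum and binds anti-apoptotic members. Its level was 7.73, 7.07 and 6.05 FPKM in LV-NC and 14.53, 15.16 and 13.91 FPKM in LV-SNORA28. Every LV-SNORA28 library was above every LV-NC library, and the lowest of the former was well clear of the highest of the latter. The group means were 6.95 ± 0.85 and 14.5 ± 0.63 FPKM (SD, n = 3), a ratio of 2.09. The log2 fold change was 0.97 (SE 0.09, 95% interval 0.75 to 1.19), with a limma adjusted p of 0.00445. Among the 12076 genes tested, 81 (0.671%) had a log2 fold change at least as large. The exact two-sided permutation p of the FPKM values was 0.1, the smallest that 3 against 3 libraries allow. BIK (ENSG00000100290, GRCh38 chromosome 22, 43110750 to 43129712, plus strand) has 1 transcript of 951 nt in 5 exons in GENCODE 44. In that annotation its fragments therefore need no division between isoforms. Over 13 alternative settings its log2 fold change ran from 0.88 to 1.06 and its adjusted p did not exceed 0.0346 in limma. The share of the FPKM sum taken by mitochondrially encoded genes also differed between groups, at 44.4% ± 2.83 in LV-NC and 37.3% ± 1.25 in LV-SNORA28 (SD, n = 3). Scaled to the nuclear FPKM sum, which leaves those genes out, the log2 fold change of BIK was 0.95.

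BAD encodes a BH3-only protein that binds BCL2L1 and is held in the cytosol by 14-3-3 proteins once phosphorylated. Its level was 9.29, 8.77 and 8.19 FPKM in LV-NC and 11.66, 10.62 and 10.14 FPKM in LV-SNORA28. No library of one group reached into the other, but the distance between them was smaller than for BIK. The log2 fold change was 0.28 (SE 0.08, 95% interval 0.09 to 0.46), and the limma adjusted p of 0.0773 did not pass. It passed in 0 of 13 alternative settings, where the adjusted p ran from 0.0603 to 0.225. BAD overlaps GPR137 on the opposite strand, and BCL2L12 overlaps IRF3 in the same way, so both values carry the same doubt about strand as that of BCL2L1 given further on.

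BID links death receptors to mitochondria after cleavage by caspase-8. It stood at 6.37, 6 and 6.8 FPKM in LV-NC and 6.42, 7.51 and 7.67 FPKM in LV-SNORA28, and the groups overlapped through LV-SNORA28 replicate 1. Its log2 fold change was 0.15 with an adjusted p of 0.316 in limma. BCL2L11, which encodes BIM, a strong activator of BAX and BAK1, was the lowest BH3-only member, at 2.92, 2.22 and 1.8 FPKM in LV-NC and 1.06, 1.59 and 2.59 FPKM in LV-SNORA28. Its groups overlapped, with a log2 fold change of -0.29 and a wide 95% interval of -0.83 to 0.24 (adjusted p 0.438 in limma). The summed FPKM of the 4 BH3-only genes was 24.4 ± 1.76 in LV-NC and 34.3 ± 0.61 in LV-SNORA28 (SD, n = 3), and BIK made up most of the difference between these sums.

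Between the highest and the lowest library the effectors differed 1.26-fold for BAX and 1.17-fold for BAK1. BAX, which moves from the cytosol to mitochondria when activated, had 20.73, 21.41 and 22.5 FPKM in LV-NC and 20.06, 21.95 and 17.92 FPKM in LV-SNORA28. The groups overlapped, and the 95% interval of its log2 fold change of -0.11 reached from -0.31 to 0.09 (adjusted p 0.454 in limma). BAK1, which sits in the outer membrane already, had 11.03, 10.47 and 11.57 FPKM in LV-NC and 11.94, 12.22 and 11.42 FPKM in LV-SNORA28. Its groups overlapped through LV-SNORA28 replicate 3, with a log2 fold change of 0.10 and a 95% interval of -0.06 to 0.25 (adjusted p 0.373 in limma). In FPKM, BAX was 1.96 ± 0.08 times BAK1 in LV-NC and 1.68 ± 0.11 times BAK1 in LV-SNORA28 (SD, n = 3). BIK stood at 0.324 ± 0.05 of the level of BAX in LV-NC and at 0.730 ± 0.04 in LV-SNORA28 (SD, n = 3).

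**Figure D2:**
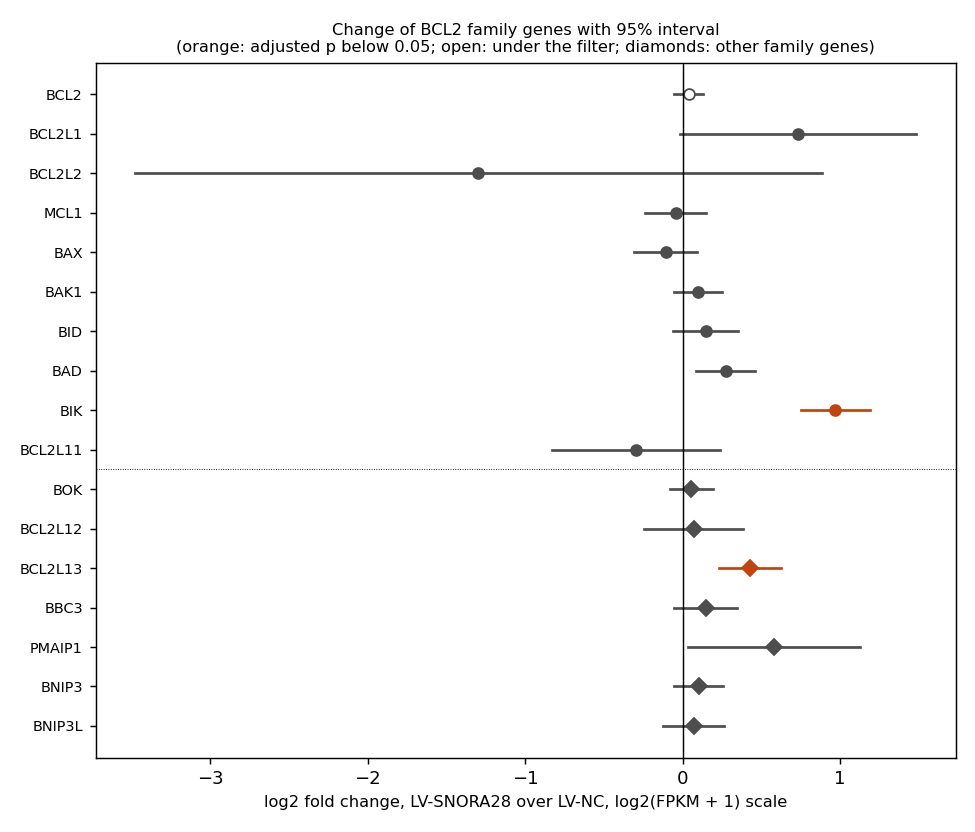
Log2 fold change, LV-SNORA28 over LV-NC, on the log2(FPKM + 1) scale (horizontal axis) for the 10 members (circles) and the 7 other family genes past the filter (diamonds), with 95% limma intervals as lines. The orange points BIK (0.97) and BCL2L13 (0.43) had an adjusted p below 0.05, BCL2 (open circle) was under the filter, and the interval of BCL2L2 is the widest shown.

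Among the anti-apoptotic genes, BCL2L1, which encodes BCL-XL, had the highest mean of all members in both groups. Its level was 80.66, 31.41 and 40.99 FPKM in LV-NC and 78.59, 79.61 and 78.78 FPKM in LV-SNORA28. The LV-SNORA28 libraries lay close together, whereas LV-NC replicate 1 stood above all of them and LV-NC replicates 2 and 3 stood far below. The SD was accordingly 26.1 FPKM in LV-NC and 0.54 FPKM in LV-SNORA28 (n = 3). The log2 fold change was 0.73 (SE 0.31, 95% interval -0.02 to 1.49) with a limma adjusted p of 0.186. Without LV-NC replicate 1 it was 1.12 with an adjusted p of 0.0160 in limma, so that 1 library decided the call. BCL2L1 has 15 annotated transcripts, of which the 13 coding ones are 1292 to 3212 nt long. The gene value depends on how fragments were divided among all these transcripts. ABALON, annotated antisense to BCL2L1, had 20.36, 16.31 and 18.08 FPKM in LV-NC and 22.55, 14.47 and 27.32 FPKM in LV-SNORA28, without the same split of LV-NC. The strand setting used to make the FPKM values is not given in the sources used here, so reads of the pair may be mixed.

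MCL1, a short-lived anti-apoptotic protein, was next in mean level, with 41.37, 35.05 and 42.12 FPKM in LV-NC and 37.72, 38.97 and 37.83 FPKM in LV-SNORA28. In LV-NC replicates 2 and 3 it stood above BCL2L1. All LV-SNORA28 values fell inside the LV-NC range. The log2 fold change was -0.04 with a 95% interval of -0.24 to 0.15 (adjusted p 0.767 in limma), and it was 0.0032 without LV-NC replicate 3.

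BCL2L2, which encodes BCL-W, was the most uneven member. Its level was 0.39, 9.88 and 11.36 FPKM in LV-NC and 0.64, 0.52 and 4.07 FPKM in LV-SNORA28, a 29.1-fold range between the highest and lowest library. LV-NC replicate 1 lay below all LV-SNORA28 libraries, and the log2 fold change of -1.30 had a 95% interval of -3.48 to 0.89 (adjusted p 0.403 in limma). It was -2.32 without LV-NC replicate 1 (adjusted p 0.0719 in limma) and -0.74 without LV-NC replicate 3 (adjusted p 0.682 in limma). The read-through gene BCL2L2-PABPN1, which shares exons with BCL2L2, had 1.01, 0.01 and 0 FPKM in LV-NC and 0.75, 1.03 and 2.13 FPKM in LV-SNORA28. It was at or near 0 in the same 2 libraries, LV-NC replicates 2 and 3, in which BCL2L2 was highest and BCL2L1 lowest. PABPN1 itself ran from 22.05 to 26.09 FPKM over the 6 libraries and did not follow this pattern. Fragments of BCL2L2 and its read-through gene cannot be divided with certainty, so the BCL2L2 value is uncertain.

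BCL2, the founding member, was close to silent in RNA, at 0.16, 0.19 and 0.19 FPKM in LV-NC and 0.24, 0.2 and 0.2 FPKM in LV-SNORA28. These values do not give the protein level, and the study reports from western blots that SNORA28 regulated Bcl-2 protein. By flow cytometry the study found more apoptosis after SNORA28 knockdown and only slightly less with overexpression. After irradiation it reports more Bcl-2 protein and less cleaved PARP with overexpression, without a significant effect on apoptosis. The RNA values bear on these libraries only. BCL2 was under the filter. In the fit without a filter, over 32761 genes, its log2 fold change was 0.04 with a limma adjusted p of 0.664.

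**Figure D3:**
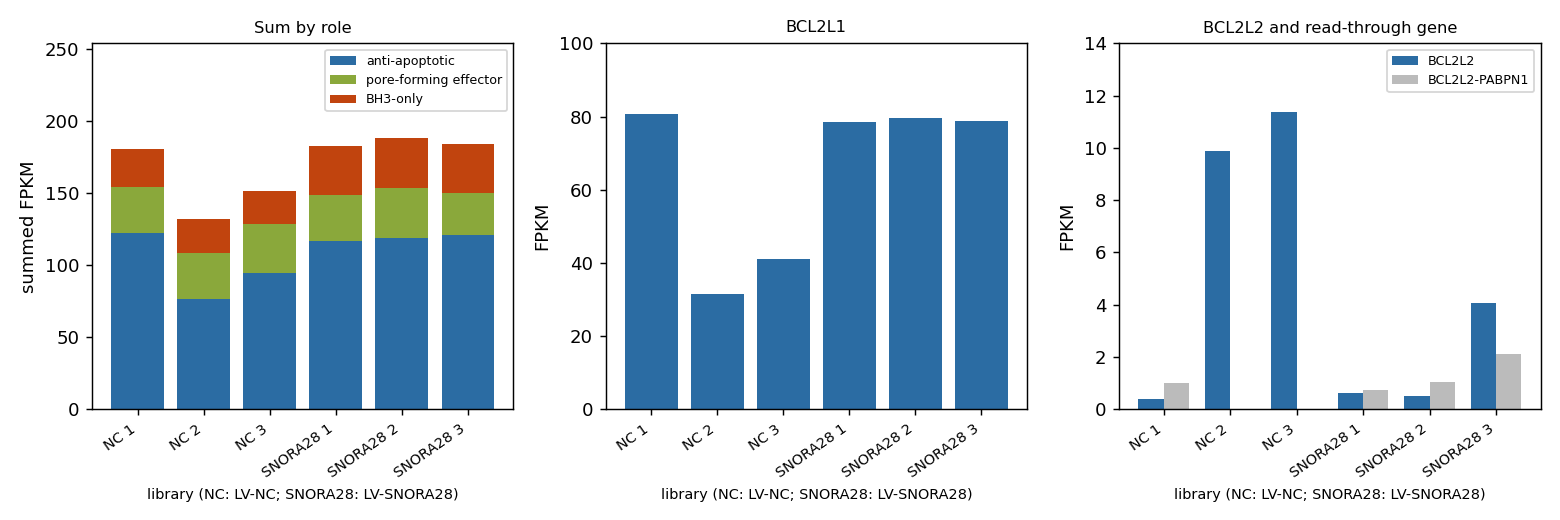
Left, summed FPKM of the 4 anti-apoptotic, 2 effector and 4 BH3-only genes stacked for each library; middle, FPKM of BCL2L1; right, FPKM of BCL2L2 and of the read-through gene BCL2L2-PABPN1, each on a linear axis from 0. LV-NC replicates 2 and 3 have the shortest BCL2L1 bars (31.41 and 40.99 FPKM), the tallest BCL2L2 bars (9.88 and 11.36 FPKM) and no visible bar for the read-through gene.

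The order of the levels was read from the group means. In LV-NC it ran BCL2L1, MCL1, BAX, BAK1, BAD, BCL2L2, BIK, BID, BCL2L11 and BCL2. Ranges of neighbours overlapped for BCL2L1 and MCL1 and along the run from BAD through BCL2L2 and BIK to BID. In LV-SNORA28 BIK stood directly behind BAX and above BAK1 and BAD, with no overlap between the ranges of BIK and either of its neighbours in that order. BCL2L1 (79.0 ± 0.54 FPKM) was clear of MCL1 (38.2 ± 0.69 FPKM; SD, n = 3) in this group, while BAK1 overlapped BAD and BCL2L11 overlapped BCL2L2. The 10 genes summed to 180.65, 132.47 and 151.57 FPKM in LV-NC and 182.86, 188.35 and 184.53 FPKM in LV-SNORA28. Anti-apoptotic genes took 57.8% to 67.9% of this sum in LV-NC and 63.3% to 65.5% in LV-SNORA28, so these shares overlapped. BIK took 3.99% to 5.34% in LV-NC and 7.54% to 8.05% in LV-SNORA28.

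The BH3-only and atypical relatives were read from a list of 13 other family genes, of which 7 passed the filter. Of these, 1 rose, 0 fell and 6 did not pass the test (14.3% called, beside 8.91% of all genes), with a median log2 fold change of 0.10, beside 0.09 over all genes. BCL2L13, a mitochondrial outer membrane protein and mitophagy receptor, rose from 5.81, 4.9 and 4.92 FPKM in LV-NC to 7.03, 7.31 and 7.67 FPKM in LV-SNORA28. Its groups did not overlap, and the log2 fold change was 0.43 (SE 0.08) with a limma adjusted p of 0.0294. The call held in 6 of 13 alternative settings, and was lost on leaving out any library but LV-NC replicate 1, with an adjusted p of up to 0.105 in limma.

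PMAIP1, which encodes NOXA, the BH3-only partner of MCL1, had 11.06, 17.67 and 18.15 FPKM in LV-NC and 30.22, 19.24 and 21.9 FPKM in LV-SNORA28. There was no overlap between the groups, but both were spread widely, and the log2 fold change of 0.58 (SE 0.23) had an adjusted p of 0.157 in limma. BBC3, which encodes the p53 target PUMA, stood at 9.03 ± 0.95 FPKM in LV-NC and 10.1 ± 0.27 FPKM in LV-SNORA28 (SD, n = 3; adjusted p 0.300 in limma). The log2 fold changes of the BAX relative BOK (0.06), of BCL2L12 (0.07) and of the mitophagy receptor BNIP3L (0.07) were negative under quantile normalization, and none of the 3 passed the test. BNIP3, a hypoxia-induced mitophagy receptor, had 3.61 ± 0.06 and 3.95 ± 0.13 FPKM (SD, n = 3; adjusted p 0.351 in limma).

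The other 6 family genes were under the filter. HRK ranged from 0.65 to 0.82 FPKM and BMF from 0.1 to 0.8 FPKM over the 6 libraries. BCL2L15 did not exceed 0.13 FPKM, BCL2L10 did not exceed 0.07 FPKM and BCL2L14 did not exceed 0.01 FPKM. BCL2A1 was listed at 0 in every library.

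Genes around the family were read from 4 lists covering the apoptosome and caspases, the death receptor arm, outer membrane partners, and regulators of family proteins. Of 49 genes listed, 47 passed the filter, 6 rose, 0 fell and 41 did not pass the test (12.8% called, beside 8.91% of all genes). Over all genes tested 6.81% rose and 2.1% fell, with a median log2 fold change of 0.09. In the order of the lists, 15.4%, 12.5%, 25% and 5.56% of the genes past the filter rose. No list was tested as a set. In the apoptosome and caspase list, 2 of 13 rose and the median log2 fold change was -0.05. These were CASP6, an executioner caspase, with a log2 fold change of 0.51 (adjusted p 0.0162 in limma), and DFFA, the inhibitor that holds the apoptotic DNase in check, with 0.37 (adjusted p 0.0193 in limma). In the death receptor arm 1 of 8 rose, with a median of 0.20. This was FADD, the adaptor of the receptors, at 10.99, 9.37 and 10.97 FPKM in LV-NC and 15.75, 13.04 and 13.86 FPKM in LV-SNORA28, with a log2 fold change of 0.41 (adjusted p 0.0484 in limma). In the list named outer membrane partners 2 of 8 rose, with a median of 0.27. These were VDAC3, an outer membrane channel, at 0.31 (adjusted p 0.0312 in limma), and OPA1 at 0.50 (adjusted p 0.0362 in limma). OPA1 shapes inner membrane cristae, so the name of the list does not describe it.

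Among regulators of family proteins 1 of 18 rose (5.56%, beside 6.81% of all genes), with a median of 0.16, beside 0.09 over all genes. PIM2 encodes a kinase known to phosphorylate BAD. It had 2.48, 2.56 and 2.34 FPKM in LV-NC and 4.18, 4.2 and 4.18 FPKM in LV-SNORA28, without overlap, and its log2 fold change was 0.58 (SE 0.07, adjusted p 0.00741 in limma). The call of PIM2 held in 12 of 12 alternative settings, that of CASP6 in 9 of 12, that of DFFA in 7 of 13, that of VDAC3 in 4 of 13, that of OPA1 in 3 of 13 and that of FADD in 2 of 13. CASP6 was lost on leaving out LV-NC replicate 3, LV-SNORA28 replicate 1 or LV-SNORA28 replicate 3, and DFFA on leaving out any library but LV-NC replicate 1. VDAC3, OPA1 and FADD lost the call on leaving out any 1 of the 6 libraries. They also lost it under quantile normalization (adjusted p 0.0552, 0.0509 and 0.106 in limma). Scaled to the nuclear FPKM sum, OPA1 and FADD lost it again (adjusted p 0.0501 and 0.0727 in limma), while VDAC3 kept it (0.0347).

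**Figure D4:**
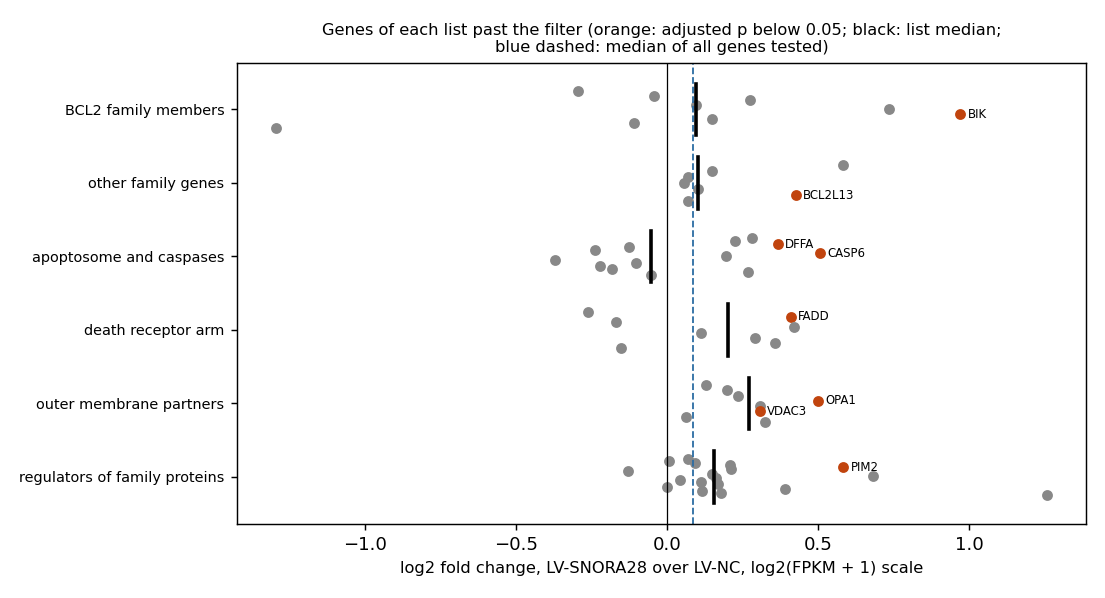
Log2 fold change, LV-SNORA28 over LV-NC, on the log2(FPKM + 1) scale (horizontal axis) for the genes of each list past the filter, 1 point per gene; black bars are list medians and the blue dashed line is the median of all 12076 genes tested (0.09). Orange points, named, had an adjusted p below 0.05, and all of them lie to the right of 0. Of all genes called, 76.4% were higher in LV-SNORA28.

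The genes whose pattern was most like that of BIK were ranked by Pearson's r of log2(FPKM + 1) over the same 6 libraries, as a description. The first 3 were ARFGAP3 (r = 0.999), FAM3C (r = 0.998) and CASC3 (r = 0.998). ARFGAP3, a GTPase-activating protein of the Golgi, lies on chromosome 22 as BIK does, and had 5.96, 5.84 and 5.38 FPKM in LV-NC and 8.01, 8.04 and 7.78 FPKM in LV-SNORA28. FAM3C, a secreted factor, rose by a log2 fold change of 0.72 (adjusted p 0.00399 in limma), and CASC3, a component of the exon junction complex, by 0.26 (adjusted p 0.0398 in limma). In all, 1112 genes had an r above 0.9 with BIK over these 6 points, which share their libraries.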

How the data were processed

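RNA of 6 HCT116 libraries (3 LV-NC, 3 LV-SNORA28) was poly(A)-selected and sequenced as dUTP-stranded paired ends. The authors deposited 1 table of FPKM values per library with at most 2 decimals. The submitters' processing notes name cutadapt 1.9, HISAT2 2.2.1, StringTie 2.1.6, DESeq2, edgeR and hg38. The annotation release, the strand setting and read totals are not given in the sources used here, so depth is unknown and no counting interval was made.

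Symbols, coordinates and transcripts came from GENCODE 44 (GRCh38), which matched 60401 of 60612 identifiers. Values were fitted as log2(FPKM + 1) in limma 3.58.1 (R 4.3.3) with lmFit and eBayes with a trend, for genes whose mean reached 1 FPKM, two-sided, with Benjamini-Hochberg adjustment. Fold changes on this scale understate those of low genes. The script was tested on simulated data. Named genes were the 10 members, the other family genes, genes of the other lists with an adjusted p below 0.05, SNORA28 and the 3 genes most like the member with the smallest p. BCL2L2-PABPN1, PABPN1 and ABALON were added after their values were seen. The members and lists were chosen with earlier results of these data known. Sequences were read from the reference, not from the libraries.

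Alternatives were no trend, quantile normalization, the nuclear FPKM sum, no filter, a mean of at least 5 FPKM, a pseudocount of 0.1, a replicate block, a fold change above 2 and each library left out.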

Additional observations from a re-analysis of the deposited data

How the results depend on the processing

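BIK kept an adjusted p below 0.05 in the 13 alternative fits, though its fold of 1.96 on the FPKM + 1 scale would not pass a fold change above 2. No other member was called in these fits except BCL2L1 without LV-NC replicate 1, so that 1 to 2 members were called on leaving out 1 library. The number of genes with an adjusted p below 0.05 (1076) was 397 without a filter and 278 to 629 with 1 library left out. The number at the threshold of the study, as applied to the limma fit, was 458. It was 263 where the mean had to reach 5 FPKM, 771 with a pseudocount of 0.1 and 92 with a fold change above 2. The log2 fold changes of BOK, BCL2L12 and BNIP3L were -0.0381, -0.0175 and -0.0236 under quantile normalization. With 1 library left out, that of BCL2L12 ran from -0.0358 to 0.171, and was negative without LV-NC replicate 1 or LV-SNORA28 replicate 2, while that of MCL1 ran from -0.126 to 0.0032 and was positive without LV-NC replicate 3. The cause was not tested. Of 294 values of single genes under an alternative, 241 kept their direction and side of the threshold. Of the rest, 46 lost a call, 6 changed direction and 1 gained a call. The 241 include genes that were not called in either fit, so they do not measure how well calls held. Unknown depth limits what can be said of genes near 0, BCL2 among them.

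A replicate block left 510 genes called. BIK remained called (adjusted p 0.0346 in limma), and BCL2L13, DFFA, FADD, VDAC3 and OPA1 lost their calls. Deviations of same-numbered libraries correlated at -0.0441, 0.0914 and 0.00983, and not every library correlated best with its own number. Deviations from a group mean cancel out within the group, so these correlations cannot show whether the numbers pair the libraries.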
